A study of Mus musculus with 12 samples.

Results

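The jejunal epithelium of mice labelled as a knockout of Fzd5, the gene for the Wnt receptor Frizzled 5, was followed from day 1 to day 3. The comparison used 6 of the 12 libraries of the study, 3 labelled Fzd5KO at day 1 and 3 labelled Fzd5KO at day 3. The other 6, labelled Ctrl at day 1 and day 3, give the change of control epithelium between the same days. The hour of collection is not given, and 3 circadian clock genes set Ctrl at day 3 apart, as described below. Total RNA of intestinal epithelial cells, taken from the jejunum, was sequenced in all of them. No source used here gives the driver of the deletion, the part of Fzd5 removed, the age of the animals or the event that starts the day count. Replicates are not said to be different animals, and p-values then reflect the spread of these libraries alone, possibly a technical one.

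The small intestinal epithelium renews itself from stem cells at the crypt base. Wnt proteins bind Frizzled receptors there and stabilise beta-catenin, which keeps stem cells dividing and drives the Paneth cell programme of granule peptides such as the alpha-defensins. Daughter cells leave the crypt, stop dividing and mature on the villus into absorptive enterocytes, or into goblet, enteroendocrine and tuft cells. Enterocytes digest and absorb nutrients, and their antigen-presentation and antiviral genes respond to interferons.

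The values were TPM, transcript abundances corrected for length and scaled to a fixed total, so depth was unknown. Of 55421 genes in the table, 13491 reached at least 1 TPM in at least 3 of the 6 knockout libraries and were tested as log2(TPM + 1) with limma, and a gene is said to rise or fall where its adjusted p was under 0.05. Log2 changes are day 3 minus day 1 on that scale, given ± SE or alone after rose or fell by, and understate the change of low genes. Epcam, which marks epithelial cells, lay at 841, 827 and 803 TPM in the knockout at day 1 and at 1181, 1220.4 and 1229 TPM at day 3. Fzd5 transcripts themselves were still measured in the knockout, at 31.9, 33.1 and 33.1 TPM at day 1 and 39.7, 37.8 and 38.3 TPM at day 3. Control libraries had 43.5, 49.4 and 46.8 and then 68.2, 65.9 and 60.5 TPM. On each day the 3 knockout libraries were all lower than the 3 control libraries. Within the knockout Fzd5 rose slightly (log2 change 0.23 ± 0.055, adjusted p = 0.00424), a rise that was lost under each of the 3 other scalings described next, and its sign turned under quantile normalization.

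Between day 1 and day 3 transcripts of Paneth cell, stem cell, cell cycle, histone and ribosomal protein genes fell in the knockout epithelium, while enterocyte, lipid, antigen-presentation and interferon-stimulated transcripts rose. Of the 13491 tested genes 5008 rose (37.1%) and 1502 fell (11.1%), together 48.3%. The 3 libraries of each day did not overlap for 7631 genes (56.6%). Changes larger than 1 on the log2 scale were fewer, 318 upward (2.36%) and 81 downward (0.6%). The excess of rises depended on the scale. The median change over all tested genes was 0.13, and quantile normalization shifted it by −0.14, median-of-ratios scaling by −0.14 and rescaling without the most abundant, mitochondrial, predicted and small RNA genes by −0.20. Under these, 3087 genes rose and 2908 fell, 3447 rose and 2842 fell, and 2762 rose and 3592 fell. Rises made up 76.9% of the calls with TPM as deposited and 51.5, 54.8 and 43.5% under the other scalings. RNA of 7SL and 7SK took 26.2 to 27.2% of the TPM at day 1 and 19.7 to 21.9% at day 3, and its part in the shift was not tested.

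**Figure D1:**
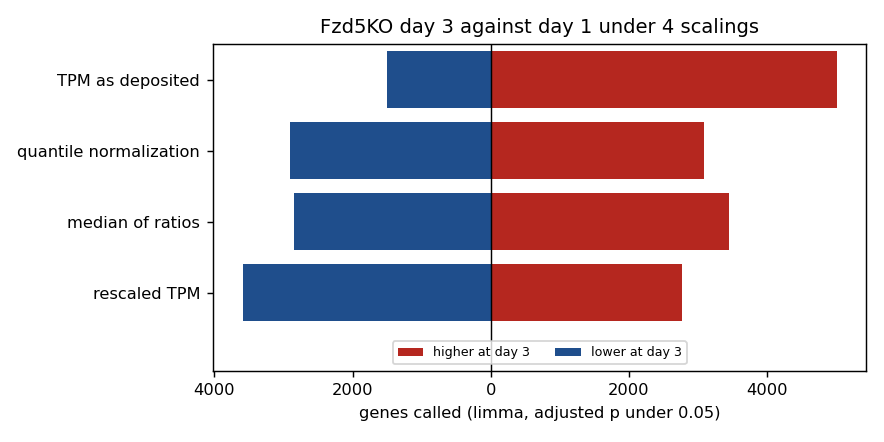
Number of genes higher (red, right) and lower (blue, left) in Fzd5KO at day 3 than at day 1 among 13491 tested genes, under 4 scalings of the values. The bars reach 5008 and 1502 genes with TPM as deposited and come close to equal, or turn, under the other scalings.

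In a principal component analysis of the 12 libraries the knockout moved away from the control with time. On the first component, with 43.8% of the variance, knockout libraries scored −1.79 to 0.42 at day 1 and −41.4 to −39.8 at day 3. Control libraries scored 7.98 to 9.92 and then 31.9 to 32.5, so both genotypes moved, in opposite directions on this component. On the second component, with 15.6%, they moved the same way, and every day 3 library lay below every day 1 library. Ctrl day 1 replicate 1 stood apart on the third component (−32.7, against −12.2 and −7.50 for the other libraries of its group). Leaving it out gave 4982 rises and 1500 falls in the knockout, whose test it enters only through the shared spread. In Ctrl this gave 2794 rises and 1421 falls, in place of 3586 and 1582. The difference of knockout and control change was then positive for 3552 genes and negative for 2419, in place of 3642 and 2682.

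**Figure D2:**
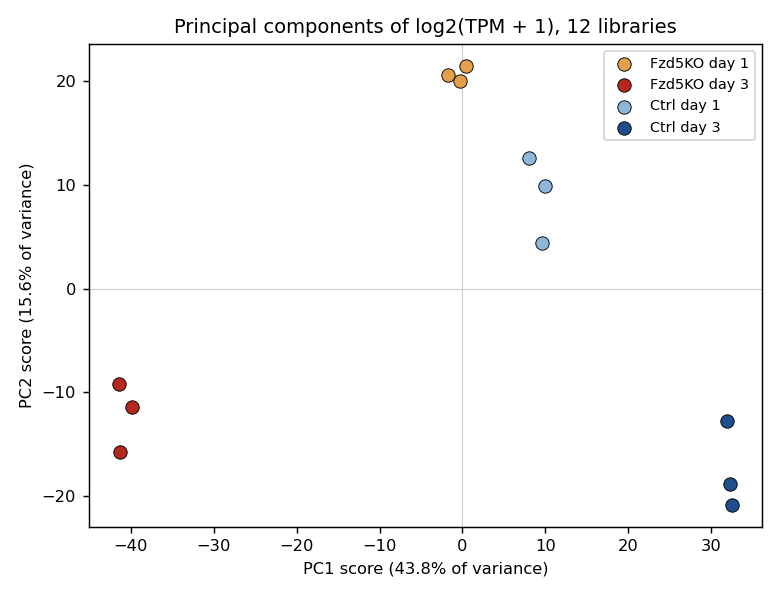
Scores of the 12 libraries on the first 2 principal components of log2(TPM + 1) over the tested genes, each axis labelled with its share of variance and each point a library. Fzd5KO moves left and down from day 1 (orange) to day 3 (red), and Ctrl right and down from day 1 (light blue) to day 3 (dark blue).

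Control libraries give the change over the same days. In Ctrl 3586 of the same genes rose (26.6%) and 1582 fell (11.7%). The difference between the courses, knockout change minus control change, was tested directly and was called for 46.9% of the genes, positive for 3642 (27.0%) and negative for 2682 (19.9%). Of the 5008 genes that rose in the knockout, 1076 also rose in Ctrl and 1203 fell there, and the difference was positive for 3321. Of the 1502 genes that fell in the knockout, 801 rose in Ctrl and 87 fell there, with a negative difference for 1327. The knockout change that picked these genes is part of the difference, so its sign here follows partly from the choice.

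The largest rise belonged to Ubd (chromosome 17, 37193892 to 37196095, plus strand, mm10), which encodes FAT10, a ubiquitin-like modifier induced by interferon gamma and tumour necrosis factor. Its level was 1.69, 1.21 and 1.51 TPM at day 1 and 83.4, 79.9 and 86.4 TPM at day 3, 56.6-fold higher on the mean (log2 change 5.10 ± 0.14, adjusted p = 5.35e-10). No library of one day came near those of the other. In Ctrl Ubd went the other way, from 1.52, 2.4 and 1.36 TPM to 0.44, 0.48 and 0.78 TPM, and the difference between the courses was 5.90 ± 0.2, adjusted p = 1.47e-09.

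Scd1 (chromosome 19, 44394455 to 44407879, minus strand), the desaturase that makes monounsaturated fatty acids, rose from 5.74, 4.83 and 5.24 TPM to 69.1, 67.2 and 66.3 TPM (log2 change 3.45 ± 0.091, adjusted p = 4.11e-10). Here the control rose as well, from 4.15, 5.69 and 5.36 TPM to 20.1, 20.8 and 19.3 TPM, and the knockout rise was larger by 1.65 ± 0.13, adjusted p = 1.02e-06. Cyp1a1, an enzyme induced through the aryl hydrocarbon receptor, rose in both as well, with a change of 2.59 in the knockout and 1.14 in Ctrl. Ly6a, the surface antigen Sca-1, rose from 1.27, 1.61 and 1.65 TPM to 16.5, 17.3 and 16.7 TPM (log2 change 2.83 ± 0.13, adjusted p = 1.51e-08). In Ctrl it lay between 0.95 and 2.55 TPM and fell slightly (−0.39, adjusted p = 0.036). Other rises among the 12 largest were those of the peptide transporter gene Slc15a2 (2.58) and Ly6d (2.48), both of which passed the filter through day 3 alone (no day 1 library reached 1 TPM), and of the lipoprotein receptor gene Scarb1 (2.32) and Bglap3 (2.29). Sprr2a2 and Sprr2a3, which encode small proline-rich proteins, rose by 2.10 and 2.48. These are near-identical copies whose reads can be split, so the 3 Sprr2a genes were also summed, which gave 371, 356 and 371 TPM at day 1 and 1532, 1637 and 1544 TPM at day 3. All 12 largest rises had a positive difference from the control course. They were picked by the knockout change, which is part of that difference, so this count is no support for it.

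Among the 12 largest falls 8 carried symbols of the alpha-defensin family. Outside that family Cyp2c29, a cytochrome P450, fell from 17.2, 17.2 and 15.9 TPM to 1.32, 1.33 and 1.6 TPM (log2 change −2.88 ± 0.064, adjusted p = 1.93e-10), and in Ctrl it fell by less (−1.31, adjusted p = 7.65e-08). Ces1d (chromosome 8, 93166068 to 93197838, minus strand), a carboxylesterase, went from 13.2, 16.3 and 11.2 TPM to 1.66, 0.79 and 1.08 TPM (log2 change −2.75 ± 0.15, adjusted p = 4.79e-08). The control rose over the same days, from 12.7, 16.04 and 14.5 TPM to 60.3, 59.8 and 60.5 TPM, which made the difference between the courses −4.74 ± 0.21, adjusted p = 1.21e-08. Clps, the cofactor of pancreatic lipase, which Paneth cells also express, fell from 79.95, 77.8 and 78.7 TPM to 18.4, 17.8 and 16.4 TPM (log2 change −2.11 ± 0.095, adjusted p = 1.36e-08), while Ctrl showed a change of −0.05, adjusted p = 0.703.

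**Figure D3:**
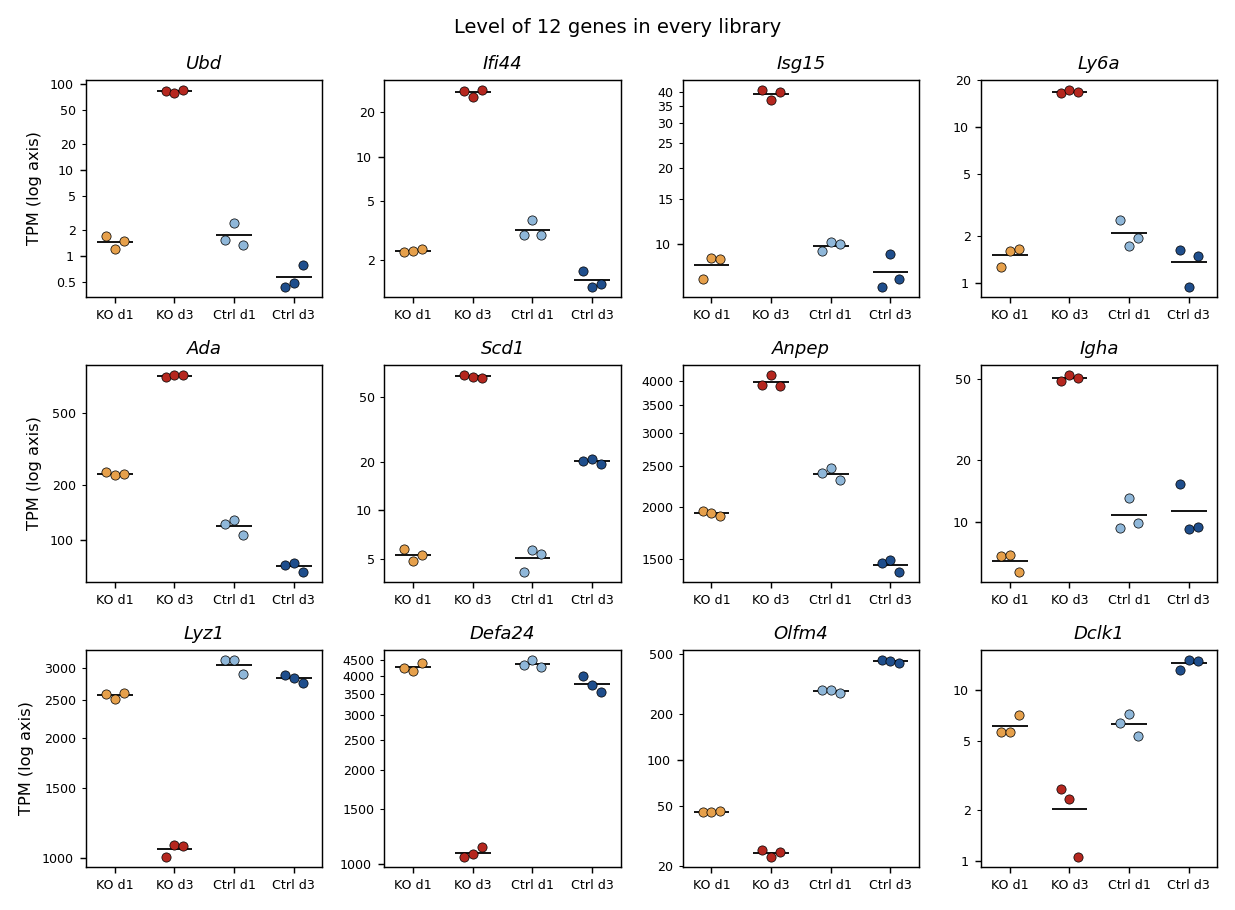
TPM (log axis) of 12 genes in each of the 12 libraries, grouped as Fzd5KO (KO) and Ctrl at day 1 (d1) and day 3 (d3), with a bar at the mean of each 3 libraries. In the knockout the first 8 genes lie higher and the last 4 lower in all 3 day 3 libraries, with no overlap between days.

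Paneth cell genes had the lowest median change among the lists described. Of the 24 genes listed for this cell, 23 passed the filter and 18 of them fell, with a median change of −1.39 beside 0.13 over all tested genes. In Ctrl 12 of the 23 fell, with a median of −0.20, and the difference between the courses was negative for 19. Here and for every cell type below, fewer cells of a type and less RNA per cell cannot be told apart in bulk samples. The fall was present under all 3 other scalings, in 19 to 20 of the 23 genes.

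Lyz1, which encodes the Paneth cell lysozyme, went from 2580.4, 2510.0 and 2590.3 TPM to 1006, 1081 and 1069 TPM (log2 change −1.28 ± 0.041, adjusted p = 1.15e-09). Control libraries had 3134, 3146 and 2899.9 and then 2880.0, 2834 and 2759 TPM, a fall of 0.11 that was called too, and the difference between the courses was negative (−1.17 ± 0.058, adjusted p = 2.52e-08). Defa24, an alpha-defensin, went from 4245, 4155 and 4390.2 TPM to 1053, 1075 and 1133 TPM (log2 change −1.97 ± 0.046, adjusted p = 2.01e-10). All day 3 libraries of the knockout lay below every other library of the study. Defa17, Defa21, Defa30 and Defa5 fell by 1.91, 1.80, 2.26 and 1.80, and Defa23 by 3.03. Since alpha-defensin genes are near-identical and single values are uncertain, the 22 Defa genes were summed. The sum was 25439.9, 25183 and 26259 TPM at day 1 and 6369, 6629.6 and 7046 TPM at day 3 in the knockout, against 28956, 29219.6 and 28006 TPM and 23456, 22111 and 22019 TPM in Ctrl. Knockout libraries lay below the control libraries of their day on both days, with the wider gap at day 3. Defa36 shows how far single copies can vary, with 149, 108 and 89.8 TPM and then 0, 59.2 and 0 TPM. It was not called in the knockout course (adjusted p = 0.0559), but was called under 8 alternatives, among them the replicate block (adjusted p = 0.0305) and the knockout libraries fitted alone (adjusted p = 0.0308). The 2 listed genes that rose were Dll4, a Notch ligand, and Lyz2, the lysozyme of myeloid cells, which went from 2.28, 2.51 and 3.38 TPM to 7.65, 7.77 and 8.75 TPM. Neither is a granule peptide of Paneth cells.

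Stem cell genes fell in the knockout while they rose in the control. Of 22 tested members 14 fell and 3 rose, with a median change of −0.32 (−0.56 to −0.40 under the other scalings, where 0 or 1 rose). Of the 22, 2 passed the filter through day 1 alone. In Ctrl 16 rose and 0 fell, with a median of 0.37, and the difference was negative for 19. Olfm4, a secreted glycoprotein of crypt base cells, lay at 45.5, 45.8 and 46 TPM and then 25.7, 23.1 and 24.8 TPM in the knockout (log2 change −0.88 ± 0.041, adjusted p = 1.61e-08). Control levels were several times higher on both days, 288, 289 and 276 TPM and 457, 447 and 433 TPM, and went up (difference −1.52 ± 0.058, adjusted p = 3.97e-09). Smoc2, Slc12a2 and Cdca7 fell by 0.70, 0.60 and 0.56. Ascl2, the transcription factor that maintains stem cell identity downstream of Wnt, was low, at 1.48, 1.6 and 1.06 TPM and then 0.24, 0.55 and 0.48 TPM (log2 change −0.74 ± 0.12, adjusted p = 0.000266). The stem cell marker gene Lgr5, which encodes an R-spondin receptor, did not pass the filter. It stood at 1.12, 0.75 and 0.82 TPM at day 1 and at 0.63, 1.06 and 0.59 TPM at day 3, overlapping, against 4.61, 4.57 and 3.74 TPM and 5.65, 5.75 and 5.27 TPM in Ctrl. Knockout libraries lay below every control library already at day 1. The 3 listed genes that rose were Cd44, Soat1 and Ephb2, and Ephb2 lost its call under quantile normalization and under rescaling.

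Wnt target and feedback genes did not move as a block. Of 14 tested members 5 fell (Axin2, Sox9, Ascl2, Myc and Bambi), 3 rose (Cd44, Kremen1 and Ephb2) and 6 were not called, and 8 to 10 fell under the other scalings. Ascl2 and Bambi passed the filter through day 1 alone. The control had 8 rises and 0 falls, and the difference was negative for 7. Axin2, a scaffold of the beta-catenin destruction complex and a direct Wnt target, went from 22.9, 19.4 and 19.4 TPM to 15.7, 13.7 and 16.1 TPM (log2 change −0.41 ± 0.082, adjusted p = 0.00141). All day 3 libraries lay below all day 1 libraries, and Ctrl rose from 37.2, 36.2 and 36.1 TPM to 49.7, 52.2 and 43.99 TPM (difference −0.81 ± 0.12, adjusted p = 0.000134). Bambi, a decoy receptor, fell by 0.56, and Kremen1, a receptor for Dickkopf proteins, rose by 0.50. Among 14 receptors and ligands of the pathway 6 rose and 2 fell, but their median of 0.14 was near that of all genes and came to −0.04 to 0.02 under the other scalings. The co-receptor genes Lrp5 and Lrp6 rose by 0.48 and 0.27, and the Lrp6 call was lost under quantile normalization and rescaling. Fzd7, another Frizzled receptor gene of crypt cells, went from 3.53, 3.58 and 4.09 TPM to 6.07, 5.71 and 5.36 TPM (log2 change 0.50 ± 0.089, adjusted p = 0.000585), whereas Ror2, which passed the filter through day 1 alone, fell by 0.54. In the Notch pathway 7 of 14 genes rose and 2 fell, and 4 or 5 rose and 3 or 4 fell under the other scalings. The median of these 14 was 0.20, near the 0.13 of all tested genes, and 0.01 to 0.08 under the other scalings. Over all tested genes 37.1% rose and 11.1% fell. Adam10, which encodes a protease that cleaves Notch receptors, rose by 0.58, and Numb, an inhibitor of Notch, by 0.64.

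Cell cycle genes fell with the stem cell genes. In the S phase list 26 of 36 genes fell and 0 rose (median −0.43, and −0.67 to −0.55 under the other scalings), and in the mitosis list 25 of 32 fell and 1 rose (median −0.31, and −0.54 to −0.44). The control moved the other way, with 18 rises and 1 fall in S phase genes and 25 rises and 0 falls in mitosis genes. Differences between the courses were negative for 31 and 30. Mcm7, a subunit of the replicative helicase, went from 27.9, 30.1 and 28.7 TPM to 20.6, 19.6 and 21.2 TPM (log2 change −0.48 ± 0.049, adjusted p = 8.14e-06). Tyms and Dut, which supply thymidylate, fell by 0.59 and 0.71. Top2a, the topoisomerase that untangles chromosomes, went from 78.2, 78.95 and 80.3 TPM to 58.5, 64.3 and 57.2 TPM (log2 change −0.39 ± 0.047, adjusted p = 2.56e-05). The smallest fall among the examples was that of Mki67, the proliferation antigen, with 42.8, 42.6 and 42.8 TPM at day 1 and 34.5, 37.9 and 36.3 TPM at day 3 (log2 change −0.23 ± 0.047, adjusted p = 0.00148). Day 3 libraries of each of these genes lay below all day 1 libraries.

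Replication-dependent histone genes, which are transcribed in S phase, fell in 50 of 62 tested members and rose in 0, with a median of −0.79. In Ctrl 43 rose and 0 fell, and 54 differences were negative. Many are near-identical copies, and their summed level over 70 genes was 5209, 5385 and 5294 TPM at day 1 and 3039.8, 3236 and 3196 TPM at day 3 in the knockout. Ctrl had 3807, 5199 and 5076 and then 7253, 7001 and 5825 TPM, the lowest of these in the library that stood apart. Hist1h1a, a linker histone gene, went from 102, 103 and 103 TPM to 58.7, 60.9 and 55.95 TPM (log2 change −0.80 ± 0.034, adjusted p = 9.29e-09).

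Genes for making ribosomes fell as well. In the list of Myc and ribosome biogenesis genes 21 of 30 fell and 1 rose (median −0.40, and −0.64 to −0.53 under the other scalings), while in Ctrl 17 rose and 0 fell. Npm1, a nucleolar chaperone, went from 323, 308 and 305 TPM to 186, 185 and 193 TPM (log2 change −0.73 ± 0.037, adjusted p = 3.25e-08), and Ncl, Dkc1 and Nop56 fell by 0.57, 0.66 and 0.52. Of the 81 tested cytosolic ribosomal protein genes 75 fell and 0 rose, with a median of −0.31 (−0.54 to −0.45 under the other scalings), against 78 rises and 0 falls in Ctrl. The difference was negative for 79. Their summed level over 84 genes fell from 33279.7, 33052 and 33066 TPM to 26499.5, 27448 and 27102 TPM in the knockout and went from 33072, 33058 and 31624 TPM to 42534, 42577 and 40528 TPM in Ctrl. Of 15 tested mitochondrially encoded genes 12 fell (median −0.49), and 1 fell in Ctrl. Each of these groups fell under all 3 other scalings.

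**Figure D4:**
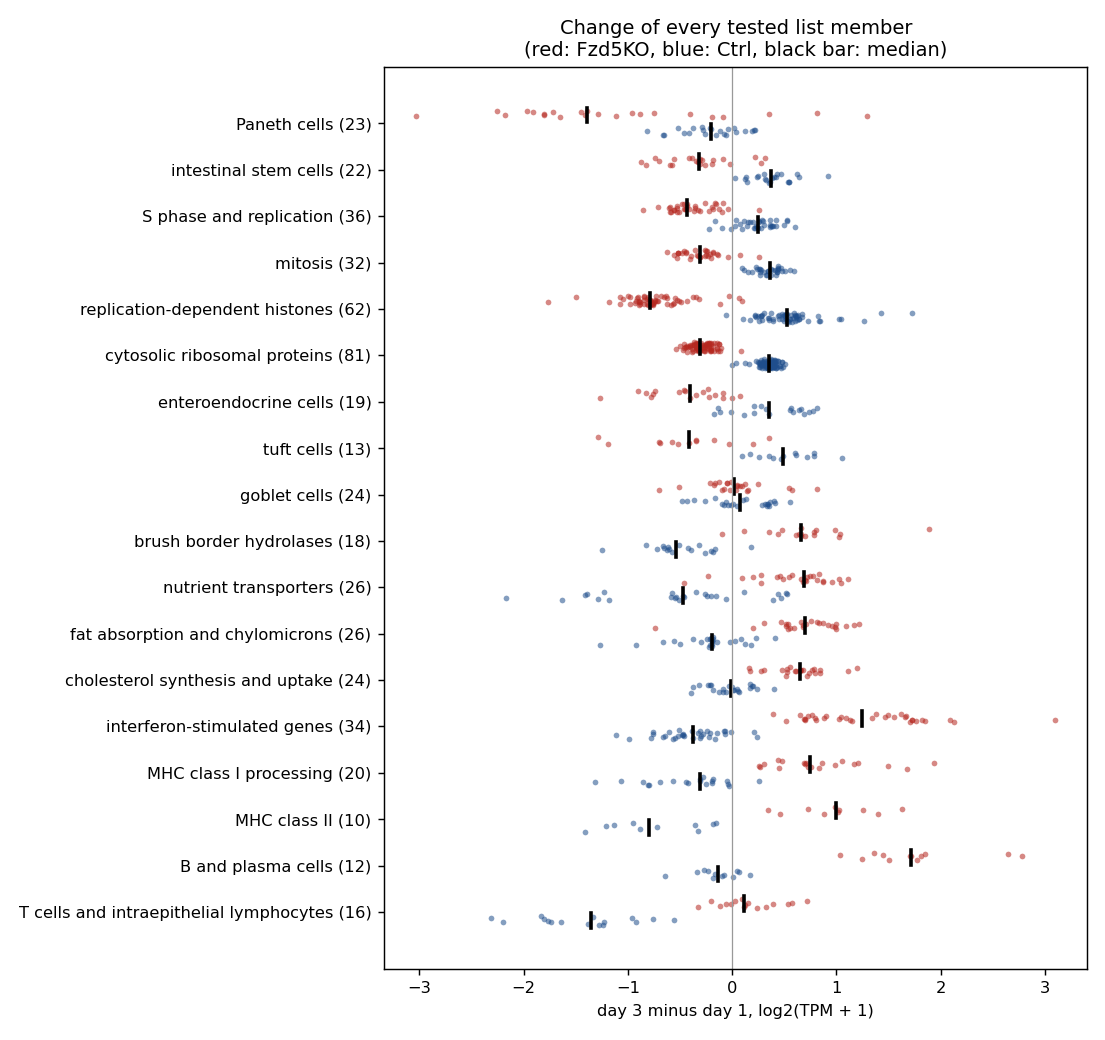
Change from day 1 to day 3 on the log2(TPM + 1) scale for every tested member of 18 gene lists (number of members in brackets), in Fzd5KO (red, upper row of each list) and Ctrl (blue, lower row), with a black bar at each median. Most Paneth, stem, cell cycle, histone and ribosomal protein genes lie left of 0 in Fzd5KO. Most enterocyte, lipid, interferon and antigen-presentation genes lie right of it, and so do the B cell genes. Of the 12 B cell genes 7 passed the filter through day 3 alone, which fixed their side. The same holds for 2 interferon-stimulated and 2 MHC class II genes. The Ctrl medians of the stem, cell cycle, histone and ribosomal lists lie on the side of 0 opposite to Fzd5KO.

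The secretory lineages other than Paneth cells did not move alike. Enteroendocrine genes fell in 12 of 19 tested members and rose in 0 (median −0.41, and −0.66 to −0.49 under the other scalings), against 11 rises and 0 falls in Ctrl and 14 negative differences, and 1 of the 19 passed the filter through day 1 alone. Chga, the granule protein chromogranin A, went from 39.9, 39.04 and 37.6 TPM to 21.8, 24.1 and 22.9 TPM (log2 change −0.74 ± 0.05, adjusted p = 2.93e-07). In Ctrl it went up, from 50.8, 56.5 and 50.7 TPM to 91.1, 90.5 and 90.1 TPM (difference −1.51 ± 0.071, adjusted p = 1.83e-08). Gip, the incretin hormone of K cells, fell by 0.76, and Chgb by 0.78. Tuft cell genes fell in 8 of 13 members and rose in 0 (median −0.41, and −0.67 to −0.48), with 10 negative differences. Dclk1, a kinase used as a tuft cell marker, went from 5.64, 5.63 and 7.1 TPM to 2.63, 2.32 and 1.06 TPM (log2 change −1.28 ± 0.19, adjusted p = 0.000138), while Ctrl rose from 6.42, 7.19 and 5.37 TPM to 12.9, 14.9 and 14.7 TPM.

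Goblet cell genes were divided, with 6 of 24 higher, 3 lower and 15 not called. Their median of 0.01 lay below that of all genes, and under the other scalings 3 rose and 7 to 14 fell. Muc2, the main mucin of the small intestine, lay at 1532, 1502 and 1443 TPM and then 1601, 1734 and 1626 TPM (log2 change 0.15 ± 0.046, adjusted p = 0.0191). That rise was lost under all 3 other scalings and its sign turned under median-of-ratios scaling and rescaling. Among those with clearer changes Tspan13 and Guca2a, which encodes guanylin, rose by 0.82 and 0.57, and Spink4 and Ccl6 fell by 0.51 and 0.70.

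Genes of the mature enterocyte rose together. Among brush border hydrolases 17 of 18 tested genes rose and 1 fell (median 0.66, and 0.43 to 0.54 under the other scalings), and 1 of the 18 passed the filter through day 3 alone. The control had 17 falls and 0 rises, and the difference was positive for all 18. The exception in the knockout was Lct, which encodes lactase. Anpep, the aminopeptidase N of the brush border, went from 1959, 1937 and 1903 TPM to 3899, 4129 and 3882 TPM (log2 change 1.04 ± 0.039, adjusted p = 3.46e-09). Control libraries fell from 2412, 2472 and 2314 TPM to 1466, 1495 and 1399 TPM (difference 1.76 ± 0.055, adjusted p = 8.77e-10). Sis, sucrase-isomaltase, rose from 1571, 1558 and 1526 TPM to 2387, 2539 and 2445 TPM (log2 change 0.66 ± 0.031, adjusted p = 1.76e-08). Alpi, intestinal alkaline phosphatase, went from 449, 452 and 440.0 TPM to 892, 942 and 900.0 TPM (log2 change 1.03 ± 0.04, adjusted p = 4.85e-09). In all 3 the day 3 libraries lay above every day 1 library, and for Anpep and Sis they also lay above the control on both days. Brush border structure genes rose in 22 of 24 members and fell in 1, Krt18. Krt20, a keratin of differentiated cells, rose by 0.83, and Pls1, Cdhr5 and Cdhr2, which build and link microvilli, by 0.66, 0.76 and 0.72.

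Nutrient transporters rose in 23 of 26 members and fell in 1, Slc13a1 (median 0.69), whereas 19 fell and 4 rose in Ctrl. Slc15a1, the peptide transporter PEPT1, went from 371, 369.9 and 361 TPM to 617, 637 and 638 TPM (log2 change 0.78 ± 0.031, adjusted p = 5.3e-09). The control dropped from 494, 497 and 477 TPM to 191, 184 and 182 TPM (difference 2.17 ± 0.043, adjusted p = 2.1e-10). Slc5a1, the sodium-glucose cotransporter SGLT1, rose by 0.66 in the knockout and changed by −1.23 in Ctrl. The folate transporter gene Slc46a1 and the cystine transporter gene Slc3a1 rose by 1.11 and 1.03.

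Fat absorption genes rose in 25 of 26 members (median 0.70). Cd36, the fatty acid translocase, was the 1 that fell. The control had 3 rises and 18 falls, and 25 differences were positive. Mttp, which loads lipid onto apolipoprotein B, went from 1111, 1094 and 1070.2 TPM to 2273, 2378 and 2339.5 TPM (log2 change 1.09 ± 0.03, adjusted p = 5.35e-10). Dgat2, which makes triglycerides, rose from 127, 128 and 129 TPM to 294, 302 and 299 TPM (log2 change 1.21 ± 0.039, adjusted p = 1.15e-09), while Ctrl showed a change of 0.02, adjusted p = 0.648. Apoa4, a chylomicron apolipoprotein, went from 6166, 6084 and 5835 TPM to 11233, 11547 and 11336 TPM (log2 change 0.92 ± 0.041, adjusted p = 1.36e-08). These libraries held the 2 days fully apart for each of the 3 genes. In fatty acid oxidation and ketogenesis 23 of 27 genes rose and 0 fell, with 15 to 18 rises and up to 3 falls under the other scalings, and 1 of the 27 passed through day 3 alone. Among them were Vnn1 (1.03) and Cpt1a (0.74), the gate for long-chain fatty acids into mitochondria. The control shared part of that course, with 13 rises and 5 falls.

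Cholesterol synthesis and uptake genes rose in 23 of 24 members and fell in 0, with a median of 0.65 (0.39 to 0.50 under the other scalings), beside a median of −0.01 in Ctrl. Insig1, which retains the sterol sensor in the endoplasmic reticulum and is itself a target of the sterol-regulated factor SREBP, went from 48.3, 50.6 and 47.7 TPM to 105, 107 and 108 TPM (log2 change 1.11 ± 0.038, adjusted p = 1.81e-09). The control had a change of 0.05, adjusted p = 0.362, so the difference was 1.06 ± 0.054, adjusted p = 3.28e-08. Hmgcs1 and Sqle rose by 0.74 and 0.79. Fatty acid synthesis was different, since 10 of 16 genes rose in the knockout and 14 in Ctrl, and the difference was positive for 3 and negative for 4. Of the 16, 1 passed through day 3 alone. Srebf1, the regulator of lipogenic genes, rose by 0.93 in the knockout and 0.81 in Ctrl, and the difference of 0.12 was not called (adjusted p = 0.206).

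All 21 tested genes of the list for villus tip purine metabolism and adhesion rose (median 0.68). In Ctrl 8 of them rose and 12 fell, and the difference was positive for 14 and negative for 1. Under the other scalings 16 to 19 rose, with medians of 0.40 to 0.52. Ada, adenosine deaminase, a villus tip enzyme, went from 235, 226 and 229 TPM to 788, 814 and 811 TPM (log2 change 1.80 ± 0.061, adjusted p = 1.72e-09). The control fell from 121, 127 and 106 TPM to 72.5, 74.03 and 66.3 TPM (difference 2.53 ± 0.087, adjusted p = 1.97e-09). Gda, guanine deaminase, and Xdh, xanthine dehydrogenase, rose by 1.19 and 0.78. Of 24 enterocyte transcription factor genes 18 rose and 1 fell, and 10 to 13 rose and 3 to 6 fell under the other scalings. Klf4, a repressor of proliferation, rose by 0.69, and Maf rose by 0.56 while it changed by −1.03 in Ctrl.

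Interferon-stimulated genes rose without exception among those tested. Of 35 listed, 34 passed the filter, 2 of them through day 3 alone, and 34 rose, with a median of 1.25 beside 0.13 over all genes. In Ctrl 24 fell and 1 rose (median −0.38), and the difference was positive for 34. Under the other scalings 33 or 34 rose. Ifi44 went from 2.26, 2.29 and 2.37 TPM to 28.1, 25.6 and 28.6 TPM (log2 change 3.10 ± 0.094, adjusted p = 9e-10). Control levels were 2.95, 3.74 and 2.96 TPM and then 1.68, 1.32 and 1.37 TPM (difference 3.88 ± 0.13, adjusted p = 1.88e-09). Isg15, a ubiquitin-like modifier, rose from 7.21, 8.76 and 8.66 TPM to 40.8, 37.1 and 39.9 TPM (log2 change 2.13 ± 0.099, adjusted p = 1.61e-08), and no control library exceeded 10.2 TPM. Oasl2, Oasl1 and Oas3, of the family of double-stranded RNA sensors, rose by 1.56, 1.73 and 1.47. Of the interferon genes, chosen after these values were seen, Ifnb1, Ifna4, Ifnl2 and Ifnl3 were listed at 0 in all 12 libraries, and Ifng reached no more than 0.3 TPM in any. Of 37 mitochondrially encoded genes 22 were listed at 0 as well, and whether the interferon genes are at 0 for a like reason was not tested. A 0 in these values is therefore not read as a low level.

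The promoters of interferon-responsive genes are where transcription factors of the IRF family bind, at the interferon-stimulated response element. The 250 bases before the transcription start were searched for its core, the letters GAAA followed by any 2 bases and GAAA again, on both strands, overlapping matches included, in RefSeq promoters of build GRCm38.p6. A match was found for 13 of the 24 interferon-stimulated genes with an entry (54.2%) and for 8 of the 8 interferon-induced GTPase genes with one. Over all genes the share was 936 of 27025 (3.46%), and over tested genes with an entry 298 of 9279 (3.21%). The genes of MHC class I processing had 2 of 17 (11.8%), those of MHC class II 1 of 7 (14.3%) and the brush border hydrolases 2 of 15 (13.3%), while the Paneth and S phase lists had 0 of 17 and 0 of 30. These are matches of letters and not measured binding. The promoters of 4 genes that rose are shown 5′ to 3′ in the direction of transcription, with matches in capitals, where a match on the other strand would show as TTTC repeated in the same way. Isg15 (chr4:156200819-156201068, minus strand) has 3 overlapping matches, Oas3 (chr5:120777660-120777909, minus strand) and Igtp (chr11:58199306-58199555, plus strand) have 1 each, and Ifi44 (chr3:151749911-151750160, minus strand), with the largest rise of the list, has none in this window. The Ifi44 sequence does hold TTTC repeated with 1 base between, a spacing that the search did not count.
Isg15: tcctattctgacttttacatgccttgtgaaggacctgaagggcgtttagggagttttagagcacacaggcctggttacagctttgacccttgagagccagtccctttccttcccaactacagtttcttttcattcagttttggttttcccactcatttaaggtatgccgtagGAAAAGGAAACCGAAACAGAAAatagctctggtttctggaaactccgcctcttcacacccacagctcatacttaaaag
Oas3: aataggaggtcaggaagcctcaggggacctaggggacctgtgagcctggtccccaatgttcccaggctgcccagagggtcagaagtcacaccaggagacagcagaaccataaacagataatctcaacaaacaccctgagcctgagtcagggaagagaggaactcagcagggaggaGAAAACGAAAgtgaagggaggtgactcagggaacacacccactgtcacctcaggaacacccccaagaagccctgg
Igtp: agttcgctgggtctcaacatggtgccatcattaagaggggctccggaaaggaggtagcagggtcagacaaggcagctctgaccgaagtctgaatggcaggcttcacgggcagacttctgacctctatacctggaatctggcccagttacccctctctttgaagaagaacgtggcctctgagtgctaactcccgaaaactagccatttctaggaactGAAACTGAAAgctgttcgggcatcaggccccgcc
Ifi44: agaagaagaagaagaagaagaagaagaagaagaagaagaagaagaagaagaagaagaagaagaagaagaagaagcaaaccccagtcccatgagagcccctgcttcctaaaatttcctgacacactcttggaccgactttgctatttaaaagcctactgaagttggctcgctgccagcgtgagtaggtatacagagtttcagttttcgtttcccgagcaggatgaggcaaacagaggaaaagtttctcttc

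Interferon-induced GTPases, which attack the vacuoles of intracellular microbes, rose in 12 of 14 tested members and fell in 0, and 12 fell in Ctrl. Of the 14, 3 passed through day 3 alone. Igtp, whose promoter is shown above, went from 19.9, 20.1 and 20.9 TPM to 38.9, 42.03 and 38.7 TPM (log2 change 0.94 ± 0.067, adjusted p = 4.08e-07). Control libraries fell from 19.1, 19.9 and 20.01 TPM to 9.43, 8.37 and 7.62 TPM. Gbp6 and Irgm2 rose by 1.27 and 0.75, and Iigp1, one of those 3, went from 0.46, 0.46 and 0.46 TPM to 3.5, 3.48 and 3.73 TPM.

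Antigen presentation rose in both classes. All 20 genes of MHC class I processing rose (median 0.74) and 16 fell in Ctrl. H2-K1, a classical class I heavy chain, went from 1163, 1179.8 and 1185 TPM to 2549, 2749 and 2649 TPM (log2 change 1.17 ± 0.04, adjusted p = 1.72e-09). H2-D1 and the peptide transporter gene Tap1 rose by 1.21 and 1.05. Class I heavy chain genes resemble each other, so the split of reads between them is uncertain. All 10 MHC class II genes rose (median 1.0), 2 of which passed through day 3 alone, and 8 fell in Ctrl. H2-Aa, a class II alpha chain, went from 51.4, 50.4 and 49.9 TPM to 127, 143 and 135 TPM (log2 change 1.40 ± 0.061, adjusted p = 1.19e-08). In Ctrl it dropped from 90.9, 90.7 and 77.4 TPM to 37.1, 36.5 and 36.2 TPM (difference 2.61 ± 0.087, adjusted p = 1.47e-09). Cd74, the invariant chain, rose by 1.25.

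Markers of immune cells moved in the same libraries. All 12 B and plasma cell genes that passed the filter rose, but 7 of them passed through day 3 alone, so their number is no support for a rise. Igha, the constant region of IgA, went from 6.84, 6.97 and 5.75 TPM to 48.7, 52.2 and 50.3 TPM (log2 change 2.78 ± 0.17, adjusted p = 1.03e-07), with 9.41, 13.1 and 9.88 TPM and 15.3, 9.24 and 9.53 TPM in Ctrl. Jchain, which joins IgA dimers, went from 1.29, 1.23 and 1.72 TPM to 7.25, 7.31 and 7.15 TPM (log2 change 1.78 ± 0.13, adjusted p = 3.95e-07). No day 3 library of either gene reached down to a day 1 library, and neither gene changed in Ctrl by the test. Summed over 432 immunoglobulin segments the level was 41.95, 36.6 and 35.7 TPM and then 241, 281 and 278 TPM. The B and plasma list summed to 25.6 to 27.2 TPM at day 1 and 161 to 195 TPM at day 3, with 1 of 15 markers, Tnfrsf17, listed at 0 in all 6 libraries. The myeloid list summed to 23.3 to 25.5 and then 45.0 to 55.5 TPM, and 8 of its 12 tested genes rose, 5 of the 12 having passed through day 3 alone. Csf1r, the receptor of macrophage growth factor and one of those 5, went from 0.61, 0.48 and 0.48 TPM to 3.44, 4.34 and 3.66 TPM. B cells and macrophages also express MHC class II and interferon-stimulated genes, and the part of these cells in the rises above was not tested.

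T cell and intraepithelial lymphocyte genes changed less in the knockout. Of 16 tested 5 rose and 0 fell, with a median of 0.12, near that of all genes and −0.08 to 0.06 under the other scalings, where 2 or 3 rose. Gzma, a granule protease, went from 68.04, 58.8 and 69.5 TPM to 91.02, 99.5 and 94.96 TPM (log2 change 0.54 ± 0.07, adjusted p = 5.8e-05). Ctrl fell from 99.7, 109 and 109 TPM to 23.9, 21.1 and 21.9 TPM, and all 16 genes fell there. The difference was positive for 15 of the 16. The summed list was 164 to 196 TPM in the knockout at day 1 and 221 to 249 TPM at day 3, and 243 to 270.1 and then 60.8 to 63.1 TPM in Ctrl. Markers of fibroblasts and smooth muscle summed to 13.1 to 16.4 and then 22.1 to 24.3 TPM in the knockout, and those of endothelium to no more than 7.46 TPM.

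Mucosal defence genes moved in both directions. Of 15 tested 9 rose and 4 fell, and 6 fell under the other scalings. Of the 15, 1 passed the filter through day 3 alone. Reg3b, which encodes a bactericidal lectin, rose from 612, 609 and 611 TPM to 1594, 1675 and 1574 TPM (log2 change 1.40 ± 0.05, adjusted p = 2.44e-09). The related gene Reg3g rose by 1.53. In Ctrl Reg3b rose by 1.14 and Reg3g by 0.64, and the differences were 0.26 for Reg3b, lost under rescaling, and 0.88 for Reg3g (adjusted p = 6.5e-07). Duox2, the oxidase that makes hydrogen peroxide at the epithelial surface, went from 25.7, 25.6 and 26.1 TPM to 89.6, 96.2 and 91.9 TPM (log2 change 1.80 ± 0.059, adjusted p = 1.42e-09). Reg1, a lectin-like secreted protein, fell from 11.2, 14.2 and 14.3 TPM to 3.78, 4.49 and 3.4 TPM (log2 change −1.54 ± 0.12, adjusted p = 6.64e-07) while Ctrl rose by 0.90.

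Of 24 listed genes known from fetal and regenerating epithelium 14 passed the filter. Of these 14, 11 rose and 1 fell, Krt7 (2 fell under the other scalings), with a median of 0.66 and 10 positive differences. Without the filter 12 of 21 rose and 1 fell, with a median of 0.38. Besides Ly6a, Tm4sf4, a tetraspanin-like membrane protein, went from 74.1, 72.1 and 76.5 TPM to 169, 176 and 172 TPM (log2 change 1.21 ± 0.037, adjusted p = 1e-09). The control fell from 121, 118 and 112 TPM to 50.5, 49.5 and 50.2 TPM. Anxa2 and the alarmin gene Il33 rose by 0.70 and 0.89. Ly6a is also known as an interferon-induced gene.

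The unfolded protein response rose in 21 of 23 tested genes and fell in 0 (median 0.46), against 4 rises and 4 falls in Ctrl. Under the other scalings 16 to 19 rose and 1 fell, with medians of 0.17 to 0.30. Pdia3 and Calr, chaperones of glycoprotein folding and of MHC class I assembly, rose by 0.62 and 0.53, and Dnajb9 by 0.76. Cell death regulators rose in 23 of 29 and fell in 1, Bcl2, and 16 to 20 rose and 2 or 3 fell under the other scalings. Of the 29, 1 passed the filter through day 3 alone. Casp8, an initiator caspase, rose by 0.58. Gsdmc4 and Gsdmc2, gasdermin genes, rose by 1.13 and 1.06 and by more in Ctrl. Targets of p53 were mixed, with 12 of 26 higher and 5 lower (6 to 8 lower under the other scalings) and a median of 0.14 that came to −0.06 to 0.03 under the other scalings. Cdkn1a, the cell cycle inhibitor p21, went from 41.8, 41.4 and 40.04 TPM to 59.9, 64.5 and 63.2 TPM (log2 change 0.59 ± 0.055, adjusted p = 3.33e-06), and Plk3 rose by 1.08. The members that fell were Ddb2, Ccng1, Aen, Eda2r and Phlda3.

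Drug-metabolising enzymes went both ways, 17 of 32 tested genes up and 12 down, with 11 to 14 up and a median of −0.11 to 0.00 under the other scalings. Cyp3a13 rose from 323, 321 and 319 TPM to 604, 651 and 635 TPM (log2 change 0.97 ± 0.033, adjusted p = 1.81e-09). Cyp2c66 fell from 69.8, 67.4 and 67.6 TPM to 19.02, 20.1 and 20.1 TPM (log2 change −1.74 ± 0.045, adjusted p = 4.06e-10), in the same direction as Cyp2c29. Both of the Cyp2c genes also fell in Ctrl.

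Circadian clock genes followed different courses in the genotypes, and no source used here gives the hour of collection. Of 17 tested, 1 of which passed the filter through day 1 alone, 8 rose and 2 fell in the knockout, with 2 or 3 rises and 3 or 4 falls under the other scalings, and 8 rose and 7 fell in Ctrl. The difference was positive for 7 and negative for 6. The median change in the knockout was 0.13, as over all tested genes, and −0.08 to 0.02 under the other scalings. Single genes of the list changed by −1.14 to 0.67 in the knockout. Over all tested genes 37.1% rose and 11.1% fell. Nr1d1, the repressor REV-ERB alpha, lay at 12.1, 12.6 and 12.5 TPM and then 18.1, 18.5 and 17.2 TPM in the knockout (log2 change 0.50 ± 0.088, adjusted p = 0.000601), a call lost under rescaling. Ctrl dropped from 21.3, 21.7 and 20.8 TPM to 0.88, 0.86 and 0.47 TPM (difference 4.18 ± 0.12, adjusted p = 8.76e-10). Arntl, the activator BMAL1, which Nr1d1 represses, was at 6.82, 7.01 and 7.28 TPM and then 7.15, 7.3 and 6.26 TPM in the knockout (log2 change −0.03 ± 0.074, adjusted p = 0.802). After rescaling its change was −0.24 and was called (adjusted p = 0.0188). Ctrl went from 7.85, 7.28 and 6.58 TPM to 25.03, 25.7 and 24.1 TPM. Dbp, a clock output factor, changed by −0.33 in the knockout and −3.24 in Ctrl. In these 3 genes Ctrl at day 3 stood apart from the other groups. Every difference between the courses uses that group, and the part of the clock in those differences was not tested. The changes within the knockout do not use Ctrl at day 3 except for the estimate of the spread. The part of the clock in these knockout changes was not tested either. With the 6 knockout libraries fitted alone, 4946 genes rose and 1398 fell.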

How the data were processed

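Per the labels' protocols, total RNA (RNeasy Mini Kit) went into stranded TruSeq libraries. Build mm10 and the tools RSEM, STAR 2.7.3a and bcl2fastq 2.18 come from the submitters' processing notes. The authors deposited TPM values for 55421 genes in 12 libraries, so depth was unknown. No source used here gives the annotation or whether counting used strand. Symbols and coordinates (GRCm38) came from GENCODE mouse release 21 for 55154 genes.

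Genes reaching 1 TPM in 3 or more of the 6 knockout libraries were tested with limma 3.58.1 (R 4.3.3) on log2(TPM + 1). The model held 4 group means, an intensity trend and all 12 libraries, which left 8 residual degrees of freedom. Benjamini-Hochberg adjustment ran over 13491 genes in each contrast. Named were the 12 largest rises and falls with at least 5 TPM and no overlap, the 6 largest differences between courses per direction, from each list described the 4 called members, at most, of smallest p, and 19 genes whatever their result. Some genes that these rules name are not reported here. Epcam, interferon genes and members named as exceptions were added after their values were seen. The members and lists were chosen with earlier results of these data known. Alternatives were other pseudocounts (0.1 and 5), filters, scalings, model terms and leaving out each library. The procedure was tested on simulated data. These held no shift of scale between libraries, so that test does not bear on the choice of scaling.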

Additional observations from a re-analysis of the deposited data

Results flagged for a closer look

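The test of the difference between the courses, knockout change minus control change on the log2(TPM + 1) scale, was called for 49 of the genes named for the size of their change or difference or named whatever their result, 23 positive and 26 negative. These 49 are given as values. Some were named because this difference was called, and others for their knockout change, which is part of it. Their number is therefore no support for a difference. Of the genes named only as members of a list, 114 more had a called difference, 81 positive and 33 negative, and are not repeated here.

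Most negative of the 49 was Defa36, at −7.36, a near-identical alpha-defensin copy listed at 0 in 2 of the 3 knockout libraries at day 3 and in Ctrl day 1 replicate 1. Its call was lost without that control library (adjusted p = 0.0822) and without several others. Ces1d differed by −4.74, BC064078 by −3.64, Scgb2b17 by −2.52, Reg1 by −2.44 and Hist1h2ah by −2.37. BC064078 lay at 0.1 to 0.13 TPM in Ctrl at day 1 and at 6.94 to 7.85 TPM at day 3, while the knockout fell from a mean of 5.25 to 2.84 TPM.

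Paneth cell genes among the 49 were Defa23 (−2.21), AY761184 (−2.06), Defa30 (−2.05), Defa26 (−1.76), Defa24 (−1.76), Defa3 (−1.73), Defa17 (−1.65), Defa37 (−1.62), Defa5 (−1.43) and Lyz1 (−1.17). Crypt and secretory genes among them were Dclk1 (−2.34), Olfm4 (−1.52), Chga (−1.51), Ascl2 (−1.28), Axin2 (−0.813) and Mki67 (−0.66). The others were Clps (−2.06), Arntl (−1.68), Cyp2c29 (−1.56) and Fzd5 (−0.237), and the Fzd5 call was lost in 7 of the fits that left out 1 library (adjusted p up to 0.0626).

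The most positive of the 49 differences were those of Ubd (5.9), Nr1d1 (4.18), Ifi44 (3.88), Ly6a (3.22), Npl (3.09) and Cd52 (3.08). Npl, an enzyme of sialic acid breakdown, went from 5.77 to 5.96 TPM at day 1 to 19.3 to 19.9 TPM at day 3 in the knockout, and from 11.8 to 13.4 down to 3.26 to 4.24 TPM in Ctrl. Cd52 is a surface glycoprotein of lymphocytes. Dbp followed with 2.91, then Sprr2a3 (2.86), Sprr2a2 (2.7), Ada (2.53), Isg15 (2.45), Ly6d (2.43), Bglap3 (2.28) and Scarb1 (2.1). Enterocyte and lipid genes were Sis (1.91), Scd1 (1.65), Slc15a2 (1.59), Cyp1a1 (1.45), Alpi (1.21) and Apoa4 (0.738). Smaller were Cdkn1a (0.913), Muc2 (0.515) and Reg3b (0.261). The Muc2 difference was lost under quantile normalization (0.08, adjusted p = 0.453), and that of Reg3b under rescaling (0.06, adjusted p = 0.392).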

How the results depend on the processing

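Counts of calls moved by over 1.5 times only under other scalings. In the knockout 3087 genes rose and 2908 fell under quantile normalization, 2842 fell under median-of-ratios scaling, and 2762 rose and 3592 fell after rescaling. Rescaling gave 4366 negative differences between the courses. In Ctrl 2140 genes rose under quantile normalization, and 1797 rose and 2491 fell under median-of-ratios scaling. Leaving out 1 library gave 4537 to 5019 rises and 1226 to 1509 falls in the knockout, 3401 to 3625 positive and 2306 to 2723 negative differences, and 2622 to 3589 rises and 1311 to 1579 falls in Ctrl.

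Signs turned for Muc2 (−0.0120 under median-of-ratios scaling and −0.0823 after rescaling), Fzd5 (−0.0253 under quantile normalization) and Arntl (0.0338 without Fzd5KO day 3 replicate 3, and down to −0.0628 without Fzd5KO day 3 replicate 2), none of them called there. Among values of named genes under alternatives, 4850 kept direction and call, 39 lost the call and 9 gained it. The causes were not tested.

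Deviations of same-numbered knockout libraries correlated by −0.02, −0.01 and 0.03, so no shared deviation was seen. Whether replicate numbers pair the libraries by design is not given and cannot be told from these values. With the replicate block 4936 genes rose and 1460 fell, and with the knockout libraries fitted alone and blocked 4625 and 1231. Small changes depend on the scale, low genes are limited by an unknown depth, and near-identical copies by how reads were split.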

Other observations

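Other fixed lists add to the knockout course as counts of tested genes, beside 37.1% rises and 11.1% falls over all tested genes. Glycolysis and hypoxia genes rose in 23 of 27 and fell in 0 (median log2 change 0.54), with 17 positive differences from the control course. Their median came to 0.35 to 0.40 under the other scalings, and 1 of the 27 passed the filter through day 3 alone. Gluconeogenesis and fructose genes rose in 11 of 14 and fell in 2, whereas 9 fell and 2 rose in Ctrl, and 7 or 8 rose in the knockout under the other scalings. Tight junction and polarity genes rose in 17 of 20 and fell in 0, with 10 to 17 rises and 1 fall under the other scalings. Metallothionein and zinc genes rose in 7 of 10 and fell in 2, and all 10 differences were positive. Growth factors of the EGF receptor family and their receptors rose in 7 of 11 and fell in 2. The median of this list was 0.45, and 0.24 to 0.30 under the other scalings.

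Heat shock chaperone genes rose in 4 of 19 and fell in 6 in the knockout, against 12 rises and 1 fall in Ctrl, and 11 differences were negative. Under the other scalings 1 or 2 rose and 10 or 11 fell in the knockout. Mitochondrial ribosomal protein genes fell in 15 of 78 and rose in 3, against 34 rises and 0 falls in Ctrl. Under the other scalings 47 to 60 of them fell in the knockout. Nuclear genes of the respiratory chain rose in 22 of 36, but 1 to 3 rose and 7 to 16 fell under the other scalings, so the direction of this list depends on the scale. Erythroid genes showed 0 calls among 4 in the knockout and 4 rises in Ctrl by limma, and the list summed to 54.2 to 67.7 TPM in the knockout at day 1 and 54.4 to 69.5 TPM at day 3.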
